A study of Mus musculus with 2 samples.

Results

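Gcg, Sst and Ghrl encode the precursors of glucagon, somatostatin and ghrelin, hormones made by cells of the pancreatic islet other than the insulin-producing beta cells. They were taken by their symbols, as 3 of the 28692 genes counted in mouse islets. The study profiled dispersed islet cells in 2 single-cell RNA libraries, the library labelled BcBKO, from mice meant to lack the chromatin remodelling subunit BAF60C (gene Smarcd3) in beta cells through Pdx1-cre, and the library labelled flox/flox, whose mice carry the floxed gene. Islets of at least 3 mice were pooled for each library, and with 1 library per genotype no difference between them has a replicate check. The Pdx1 promoter that drives the recombinase is active in pancreatic progenitors as well as in beta cells, so its use does not by itself limit recombination to beta cells. The counts are unique molecular identifiers (UMIs), each standing for 1 captured RNA molecule read at its 3′ end.

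Glucagon is cut from its precursor in alpha cells by the convertase encoded by Pcsk2, and it raises glucose output by the liver. Somatostatin from delta cells restrains the release of insulin and glucagon from neighbouring cells through receptors of the Sstr family. Ghrelin comes from epsilon cells, which are rare in the adult islet, and is active after acylation by the enzyme encoded by Mboat4. All of these hormones are secreted, and the RNAs of their precursors are among the most abundant of the cells that make them.

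In the GENCODE annotation of GRCm38, Gcg (ENSMUSG00000000394) lies on the minus strand at chr2:62474530-62483650 and Sst (ENSMUSG00000004366) on the minus strand at chr16:23889573-23890958, with no other gene overlapping either of them. Ghrl (ENSMUSG00000064177), on the minus strand at chr6:113716119-113719880, is overlapped by Gm26982 and Gm44033 on the plus strand. Gm26982 was among the counted genes, with 248 UMIs in the kept barcodes of the library labelled BcBKO and 218 in those of flox/flox, and only 1 barcode of the library labelled BcBKO held UMIs of both Gm26982 and Ghrl. The strand setting of the counting is not given in the sources used here, so the Ghrl counts are less certain than those of Gcg and Sst. The core of each promoter is printed as context for these genes, from RefSeq windows on GRCm38.p6, 5′ to 3′ on the strand of the gene. Capitals mark TATAAA in Gcg, the cAMP response element TGACGTCA in Sst, and TATATAA in Ghrl.
Gcg promoter, chr2:62483660-62483689: gcctggagagcaTATAAAagcacagcaccc
Sst promoter, chr16:23890874-23890903: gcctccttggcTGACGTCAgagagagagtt
Ghrl promoter, chr6:113719894-113719923: acaaggcttccTATATAAggagaagccggt
Both strands were searched in 32851 promoter windows of the mouse genome, and TATAAA was present in 13.6% of them, TGACGTCA in 1.79% and TATATAA in 3.24%. The motif begins 24 bases before the RefSeq start in Gcg and 48 bases before it in Sst. The GENCODE gene of Sst begins farther upstream, so that the printed Sst bases lie inside the gene coordinates given above. Ghrl has 4 RefSeq windows, of which 1 holds TATATAA, and there the motif begins 32 bases before the GENCODE start, while the RefSeq start of that window lies within the motif. These matches describe the printed letters and carry no measurement of binding.

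The library labelled BcBKO held 10775 barcodes and flox/flox 9438. Barcodes were kept with at least 500 genes, at least 1000 UMIs and at most 20% of UMIs from mitochondrial genes, which left 8504 and 7568 with median depths of 12695.5 and 12163 UMIs. The libraries share 23 barcode sequences, of which 14 were kept in both, and without them the differences in the shares of hormone-rich barcodes given below were 5.21 points for Gcg and 2.03 points for Sst. The targeted gene went against the labels. Among barcodes with at least 25% insulin UMIs, Smarcd3 had 101 UMIs (0.705 CPM, counts per 1000000 UMIs, with a 95% Poisson interval of 0.575 to 0.857) in the library labelled BcBKO and 53 UMIs (0.401 CPM, 0.301 to 0.525) in flox/flox. A tag at the 3′ end that lies outside the deleted part would check nothing, and each direction below is therefore that of the library labelled BcBKO. All intervals cover counting error only. RNA of the digestive acinar cells also differed: 5 acinar markers had a median sum of 0 UMIs per barcode in the library labelled BcBKO and 3 UMIs in flox/flox, in endothelial, mural and macrophage barcodes alike.

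Gcg was counted in nearly every droplet, but almost all of its RNA lay in a minority of them. At least 1 Gcg UMI was found in 99.8% of kept barcodes of the library labelled BcBKO and in 99.4% of those of flox/flox, with medians of 13 and 9 UMIs. The 99th percentiles were 6093 and 7268 UMIs, and the highest barcodes held 13222 and 21215. Few barcodes lay between the low and the high range: 0.835% of the library labelled BcBKO and 0.159% of flox/flox had 101 to 300 Gcg UMIs.

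Sst had the same shape at a lower level. It was found in 85.0% of kept barcodes of the library labelled BcBKO and in 69.4% of those of flox/flox, with medians of 2 and 1 UMIs and maxima of 6050 and 9638. Between 101 and 300 Sst UMIs lay 0.800% and 0.357% of the barcodes. Over all kept barcodes the log2 ratio of the library labelled BcBKO over flox/flox was 0.43 for Gcg and 0.41 for Sst on the scale of CPM plus 1, neither past 1.5-fold, as 2.54% of 3892 genes were. Ghrl was different from both, with a median of 0 UMIs and no barcode above 2.

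**Figure D1:**
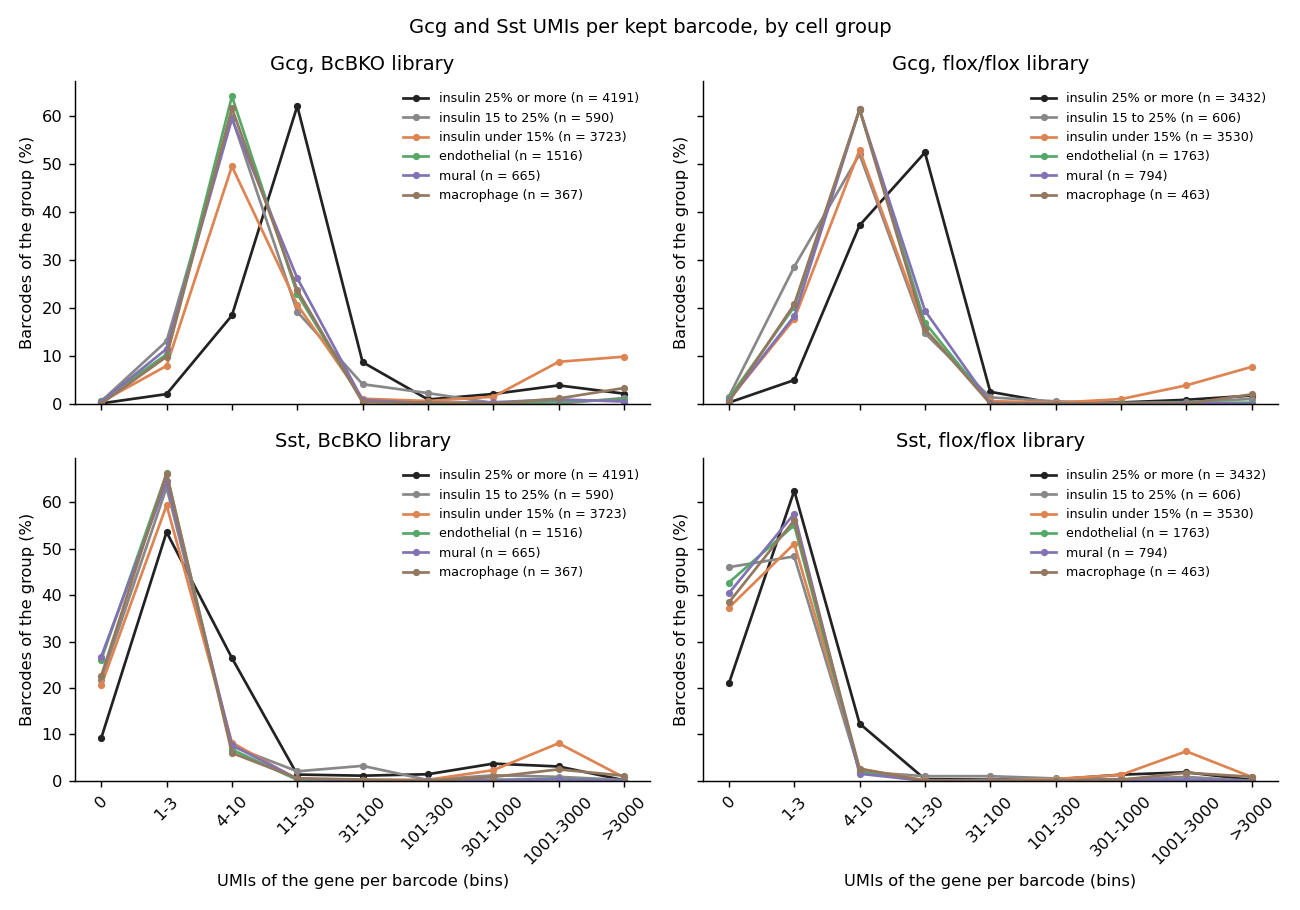
Share of barcodes (%, vertical) by the number of Gcg (top) or Sst (bottom) UMIs per barcode (binned, horizontal) in the library labelled BcBKO (left) and flox/flox (right), with a line for each insulin class and non-endocrine group and its number of barcodes. Most barcodes form a low peak, at 4 to 30 UMIs for Gcg and 0 to 3 for Sst, and the high peak above 300 UMIs is clearest at an insulin share under 15%.

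Barcodes were called rich in Gcg or Sst when the gene made up at least 2% of their UMIs. Gcg-rich barcodes were 1077 of 8504 (12.7%, exact binomial 95% interval 11.96 to 13.39) in the library labelled BcBKO and 561 of 7568 (7.41%, 6.83 to 8.03) in flox/flox, a difference of 5.25 percentage points. They held 95.3% of all kept Gcg UMIs in the library labelled BcBKO and 96.8% in flox/flox. Sst-rich barcodes were 610 (7.17%, 6.63 to 7.74) in the library labelled BcBKO and 389 (5.14%, 4.65 to 5.66) in flox/flox, a difference of 2.03 points, and held 88.0% and 92.1% of the Sst UMIs. Both shares were higher in the library labelled BcBKO, by more than the counting intervals of these libraries. How much of each difference came with the dispersal and capture of the islets was not tested.

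The 2% threshold did not fall in a gap, and barcodes lay close to it on both sides. Just above it, at 2 to 2.5% of UMIs, lay 40 Gcg-rich barcodes in the library labelled BcBKO and 10 in flox/flox, and just below, at 1.5 to 2%, lay 53 and 12. For Sst the numbers were 49 and 28 above it and 42 and 25 below it. With a threshold of 5%, the Sst difference narrowed to 0.787 points and the Gcg difference to 3.87 points. The Sst-rich share was then 4.75% in the library labelled BcBKO and 3.96% in flox/flox, and the Gcg-rich share 10.6% and 6.74%.

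The content of a Gcg-rich barcode was lower in the library labelled BcBKO, with a median of 2669 Gcg UMIs against 3685 in flox/flox. For Sst the medians were 1364 and 1565 UMIs. Relative to all UMIs of these barcodes, the log2 ratio of the library labelled BcBKO over flox/flox was -0.38 for Gcg and -0.25 for Sst. At a threshold of 5% the ratios came to -0.15 and -0.05. Among Gcg-rich barcodes with under 15% insulin and under 2% Sst (674 in the library labelled BcBKO, 409 in flox/flox), the ratio for Gcg was -0.12. Among the corresponding Sst-rich barcodes (333 and 268) the ratio for Sst was -0.03. Neither passed a 1.5-fold difference, which 2.36% of the genes at 20 CPM or more did in the Gcg-rich and 2.93% in the Sst-rich barcodes. These barcodes were chosen by the share of the same hormone, which bounds how far that share can differ between libraries, so the ratios are a description of the barcodes chosen. Their median Gcg counts were 2820.5 UMIs in the library labelled BcBKO and 3684 in flox/flox, at median depths of 11047 and 14037 UMIs.

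Most hormone-rich barcodes carried little insulin. Of the Gcg-rich barcodes, 761 in the library labelled BcBKO and 447 in flox/flox had an insulin share (Ins1 plus Ins2) under 15%, 45 and 21 had 15 to 25%, and 271 and 93 had at least 25%. Of the Sst-rich barcodes, 420 and 306 lay under 15%, 30 and 15 at 15 to 25%, and 160 and 68 at 25% or more. Within the class with at least 25% insulin, Gcg-rich barcodes were 6.47% in the library labelled BcBKO (5.74 to 7.25) and 2.71% in flox/flox (2.19 to 3.31). Sst-rich barcodes were 3.82% (3.26 to 4.44) and 1.98% (1.54 to 2.51) of that class.

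Insulin-rich barcodes that were also rich in Gcg were deeper than the others. Their median depth was 43351 UMIs in the library labelled BcBKO and 54883 in flox/flox, against 30773 and 36467.5 UMIs in insulin-rich barcodes that were rich in neither hormone. Scrublet, a doublet caller, marked 12 of 271 in the library labelled BcBKO and 11 of 93 in flox/flox. The part of barcodes that hold more than 1 cell was not tested.

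**Figure D2:**
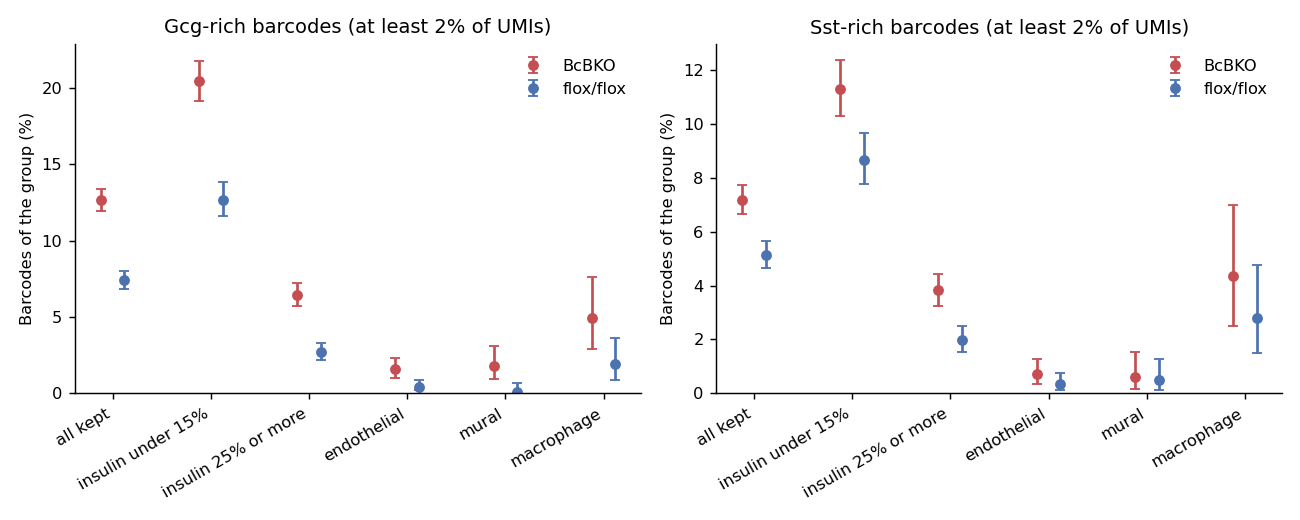
Share of barcodes (%) rich in Gcg (left) and Sst (right) in all kept barcodes, in the insulin classes under 15% and of 25% or more, and in 3 non-endocrine groups, with the library labelled BcBKO left of flox/flox in each pair and exact binomial 95% intervals as bars. The Gcg-rich share of all kept barcodes is 12.7% in the library labelled BcBKO and 7.41% in flox/flox, and in endothelial and mural barcodes all plotted shares lie under 2%.

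Free RNA leaves UMIs of abundant genes in droplets of cells that do not express them, so the level outside hormone cells was read in non-endocrine barcodes with under 15% insulin. Endothelial barcodes (at least 3 UMIs of Plvap and Cdh5, genes of the vessel lining) numbered 1516 in the library labelled BcBKO and 1763 in flox/flox. Barcodes with at least 5 UMIs of Rgs5 and Pdgfrb, genes of the mural cells that support vessels, numbered 665 and 794 and are called mural by that rule. Most of them, 498 and 569, also met the endothelial rule, and over all of them the 8 endothelial markers summed to more (14244 and 13564 CPM) than the 8 mural markers (7660.0 and 9375 CPM). In the 165 and 224 that met the mural rule alone, the endothelial markers summed to 656 and 609 CPM and the mural markers to 17545 and 20805 CPM. Macrophage barcodes (at least 5 UMIs of the complement genes C1qa and C1qb) numbered 367 and 463. The 3 rules overlapped in 506 and 577 barcodes.

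The median Gcg count was 7 UMIs in endothelial, 8 in mural and 8 in macrophage barcodes of the library labelled BcBKO, and 6 UMIs in each of the 3 groups in flox/flox. Sst had a median of 1 UMI in all of them in both libraries. In endothelial barcodes the 10th and 90th percentiles of Gcg were 3 and 14 UMIs in the library labelled BcBKO and 2 and 13 in flox/flox. These medians barely differed between the 3 groups, also in the 162 and 222 mural barcodes that met no other rule and were not rich in either hormone (6.5 and 5 UMIs of Gcg), and they were near those of barcodes that failed the filter, at 6 and 5 UMIs of Gcg and 1 and 1 of Sst. A few UMIs of Gcg in a barcode of these libraries are therefore at the background level and are not read as expression.

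A small number of barcodes set the summed Gcg level of each non-endocrine group. Over all endothelial barcodes the Gcg level was 8159 CPM in the library labelled BcBKO and 2852 CPM in flox/flox, a log2 ratio of 1.52, and Sst had a log2 ratio of 1.06. In this comparison 2.04% of 6508 genes passed a 1.5-fold difference in either direction. Without the 32 endothelial barcodes rich in Gcg or Sst in the library labelled BcBKO and the 13 in flox/flox, Gcg was at 1229 and 897 CPM, a log2 ratio of 0.45, which no longer passes 1.5-fold, and Sst was at 219 and 125 CPM, a log2 ratio of 0.80. Among these genes 1.46% passed. Scrublet had marked 19 of the 32 and 8 of the 13.

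Over all mural barcodes the log2 ratio was 2.43 for Gcg and -0.16 for Sst, and without 15 hormone-rich barcodes in the library labelled BcBKO and 4 in flox/flox it was 0.46 and 0.89. Over all macrophage barcodes it was 0.70 for Gcg and 0.52 for Sst, and without 28 and 20 hormone-rich barcodes it was 0.46 and 0.86. The genes past 1.5-fold were 2.14% of those tested in the mural and 9.56% in the macrophage group, and 1.96% and 10.3% without hormone-rich barcodes. Since the groups overlap, these ratios are not independent of each other. In barcodes that met 1 of the 3 rules alone, the Gcg ratio without hormone-rich barcodes was 0.45 in endothelial, 0.59 in mural and 0.43 in macrophage barcodes, and the Sst ratio 0.72, 0.95 and 0.79.

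The hormone-rich barcodes among the macrophages mostly lay near the marker threshold. Their median was 7.5 UMIs of C1qa plus C1qb in the library labelled BcBKO and 5.5 in flox/flox, against 50 and 54 UMIs in the other macrophage barcodes. The 6 other macrophage markers summed to a median of 0 UMIs in them in both libraries, against 49 and 50 in the rest. At least 5 UMIs of these 6 markers were present in 11 of 28 in the library labelled BcBKO and in 5 of 20 in flox/flox. Most hormone-rich barcodes of this group thus held little other macrophage RNA.

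At an insulin share of 25% or more, barcodes held more Gcg than endothelial ones. The median was 17 UMIs in the library labelled BcBKO and 12 in flox/flox, and 16 and 11 in those not rich in Gcg or Sst, whose Sst medians were 3 and 2. Over all barcodes of this class Gcg was at 5880 CPM in the library labelled BcBKO and 3188 CPM in flox/flox (log2 ratio 0.88) and Sst at 2370.4 and 1212 CPM (0.97), while 1.18% of 3053 genes passed 1.5-fold. Without hormone-rich barcodes Gcg had a log2 ratio of 1.43, where 1.17% of genes passed, and without barcodes above 100 UMIs of Gcg one of 0.70, so that the size rests on few barcodes and the direction was the same in each. For Sst the corresponding ratios were 1.08 and 1.06.

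Among barcodes not rich in Gcg or Sst, Gcg went with depth in insulin-rich barcodes and also in endothelial ones. The endothelial median in the library labelled BcBKO was 4 Gcg UMIs at a depth of 1000 to 2000 and 9 at 10000 to 20000. In flox/flox it was 3.5 at 1000 to 2000 and 9 at 20000 to 30000. At 1000 to 2000 UMIs per barcode the insulin-rich median was 7 Gcg UMIs in the library labelled BcBKO and 5 in flox/flox. At 20000 to 30000 it was 14 and 10, at 40000 to 60000 it was 21 and 13, and above 60000 it was 31 and 19. At 10000 to 20000 insulin-rich barcodes had 12 Gcg UMIs in the library labelled BcBKO and 7 in flox/flox, and endothelial barcodes had 9 and 8. In flox/flox this was the only depth class in which the median of the insulin-rich barcodes, 69 of them, was below that of the endothelial ones, and the mean there was 9.45 UMIs in insulin-rich and 8.07 UMIs in endothelial barcodes. At 2000 to 5000 UMIs the medians were 7 in both kinds of barcode in the library labelled BcBKO, and 6 in insulin-rich and 5 in endothelial barcodes of flox/flox. The acinar markers did not follow depth, with medians of 0 in every depth class in the library labelled BcBKO and of 2.5 to 3 in flox/flox. Other RNAs did rise in the insulin-rich barcodes between the classes of 1000 to 2000 and above 60000 UMIs. The median of Ppy, the pancreatic polypeptide gene, went from 2 to 11 UMIs in the library labelled BcBKO and from 2 to 8 in flox/flox. The summed macrophage markers went from 0 to 3 and from 0 to 2, and the endothelial markers from 0 to 1 in both libraries.

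**Figure D3:**
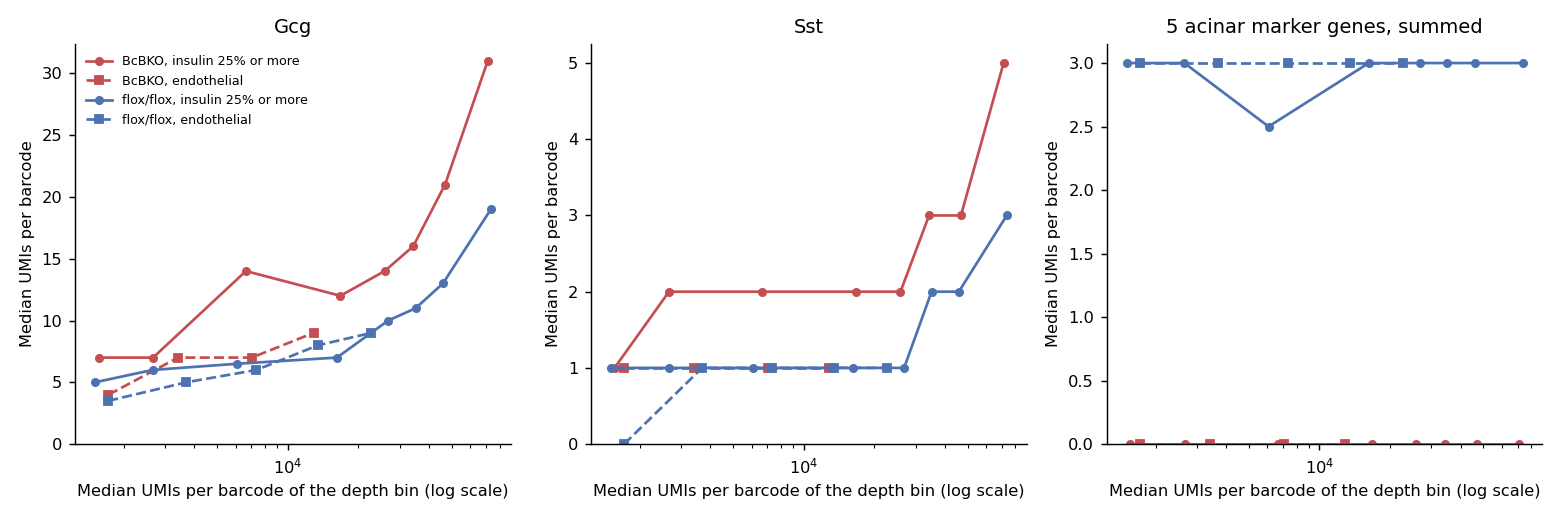
Median UMIs per barcode (vertical) of Gcg, Sst and the sum of 5 acinar markers against the median total UMIs of each depth class (horizontal, log scale), for insulin-rich (circles, solid) and endothelial (squares, dashed) barcodes not rich in Gcg or Sst, in the library labelled BcBKO (red) and flox/flox (blue). Gcg reaches 31 UMIs in the library labelled BcBKO and 19 in flox/flox in the deepest insulin-rich barcodes, while the acinar sum stays at 0 in the library labelled BcBKO and at 2.5 to 3 in flox/flox.

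The proportion of Gcg to Sst at this low level lay in a narrow range across cell groups of the same library. Among barcodes not rich in either and with at most 100 UMIs of each, there were 5.61 Gcg UMIs per Sst UMI in endothelial, 5.71 in mural, 5.12 in macrophage and 5.16 in insulin-rich barcodes of the library labelled BcBKO. In flox/flox the values were 7.63, 7.77, 6.77 and 6.41. The insulin-rich values were below the endothelial ones, with intervals of 5.06 to 5.26 and 5.36 to 5.88 in the library labelled BcBKO and of 6.24 to 6.59 and 7.24 to 8.04 in flox/flox. Barcodes that failed the filter had lower values still, 3.11 and 4.06. In that group only the limit of 100 UMIs was applied and hormone-rich barcodes were not removed, so it is not a like set. The proportion was lower in the library labelled BcBKO in each of these 5 groups.

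After each barcode was thinned to 1000 UMIs, Gcg was found in 53.2% of insulin-rich and 72.03% of endothelial barcodes of the library labelled BcBKO, and in 37.8% and 60.2% in flox/flox. Sst was found in 22.9% of insulin-rich and 25.6% of endothelial barcodes of the library labelled BcBKO and in 13.2% and 14.1% in flox/flox. On this thinned scale, where insulin takes most UMIs of the insulin-rich barcodes, these were not above the endothelial ones in either gene. The order turned per 1000000 UMIs outside the 8 hormone genes and the mitochondrial genes. On that scale, without hormone-rich barcodes and those above 100 UMIs of the gene, Gcg stood at 1821 in insulin-rich and 1327 in endothelial barcodes of the library labelled BcBKO and at 1182 and 960.2 in flox/flox, and Sst at 373 and 236 and at 185 and 126. Without thinning, Gcg was found in 99.9% of insulin-rich and 99.3% of endothelial barcodes of the library labelled BcBKO, and in 99.8% and 98.9% in flox/flox. The unthinned shares for Sst were 90.8% of insulin-rich and 73.9% of endothelial barcodes of the library labelled BcBKO and 79.0% and 57.3% in flox/flox.

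Between 15 and 25% insulin lay 590 barcodes of the library labelled BcBKO and 606 of flox/flox, with low median depths of 1393.5 and 1384 UMIs. Their median Gcg count was 7 and 5 UMIs. Their summed Gcg level was lower in the library labelled BcBKO (log2 ratio -0.26), and their Sst level was higher (0.60), where 10.8% of 6365 genes passed 1.5-fold. These sums rest on few barcodes. Those above 1000 Gcg UMIs, 7 in the library labelled BcBKO and 8 in flox/flox, held 86.0% and 92.2% of the Gcg UMIs of the class, and without them the direction turned, with a log2 ratio of 0.51. For Sst, 6 and 5 barcodes above 1000 UMIs held 67.3% and 73.3%, and the ratio without them was 0.89.

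Ghrl RNA was close to absent. In all kept barcodes it had 21 UMIs in 20 barcodes of the library labelled BcBKO (0.119 CPM, 0.0739 to 0.183) and 19 UMIs in 19 barcodes of flox/flox (0.115 CPM, 0.0692 to 0.179). The highest barcode held 2 UMIs in the library labelled BcBKO and 1 in flox/flox. No barcode met the rule for Ghrl-rich, 0.1% of UMIs and at least 5 UMIs, which allows a share of such barcodes of up to 0.0353% and 0.0396%. The levels of the libraries could not be told apart at this depth.

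Most of the few barcodes with Ghrl were insulin-rich. Per UMI, Ghrl stood at 0.105 CPM in insulin-rich barcodes of the library labelled BcBKO and at 0.0909 CPM in those of flox/flox. Under 15% insulin it stood at 0.195 and 0.158 CPM. These levels rest on 15 and 12 UMIs and on 6 and 5 UMIs, too few to order the classes. Insulin-rich barcodes held 15 of the 20 barcodes with Ghrl in the library labelled BcBKO and 12 of the 19 in flox/flox, and they held 81.4% and 79.9% of all kept UMIs. Gcg-rich barcodes were 3 of the 20 and 3 of the 19, and Sst-rich barcodes were 2 and 2. Endothelial barcodes gave 1 with Ghrl in each library and macrophages none, which allows up to 0.817% and 0.648% of macrophage barcodes to hold a Ghrl UMI at their depth and sets no limit on cells that express it. Mboat4, the ghrelin acyltransferase, had 12 UMIs in the library labelled BcBKO and 17 in flox/flox, and Irs4, another epsilon cell marker, had 8 and 1.

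Gcg-rich and Sst-rich barcodes with under 15% insulin, each rich in only 1 of these hormones, separated by known markers. Gcg made up a median of 26.6% of the UMIs of a Gcg-rich barcode in the library labelled BcBKO and 29.3% in flox/flox, and Sst 17.4% and 17.0% of a Sst-rich one. The other hormone was near the endothelial level: Sst had a median of 2 UMIs in the library labelled BcBKO and 1 in flox/flox in Gcg-rich barcodes, and Gcg 10 and 8 UMIs in Sst-rich barcodes. Ins2 had medians of 193 and 182 UMIs in Gcg-rich and 191 and 182 in Sst-rich barcodes, against 156 and 155 in endothelial ones.

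Among 5547 genes compared between these groups, 3.41% were at least 1.5-fold higher and 20.6% at least 1.5-fold lower in Gcg-rich barcodes in both libraries, with a median log2 ratio of -0.39. Of 5 alpha cell markers other than Gcg, 4 were higher in Gcg-rich barcodes and none lower. Ttr, which encodes the thyroxine carrier transthyretin, was at 24388 CPM in Gcg-rich against 427 CPM in Sst-rich barcodes of the library labelled BcBKO, and at 26143 against 320.0 CPM in flox/flox. Irx2, a homeobox transcription factor of alpha cells, was at 124 against 11.9 CPM and at 109 against 6.70 CPM. Irx1 and the amino acid transporter gene Slc7a2 were also higher, and Gc, which encodes the vitamin D binding protein, was at 157 against 138 CPM in the library labelled BcBKO and at 166 against 169 CPM in flox/flox.

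Both delta cell markers that reached 20 CPM in both libraries, other than Sst, were lower in Gcg-rich barcodes. Hhex, the transcription factor that maintains delta cells, was at 8.76 CPM in Gcg-rich against 255 CPM in Sst-rich barcodes of the library labelled BcBKO and at 0.172 against 198 CPM in flox/flox. Rbp4, a retinol carrier, was at 690 against 5470.4 CPM and at 734 against 5514 CPM. Ghsr, the ghrelin receptor, had 70 UMIs in Sst-rich barcodes of the library labelled BcBKO and 36 in those of flox/flox, and none in Gcg-rich barcodes, which allows up to 0.375 and 0.516 CPM. Lepr, listed here as a delta cell marker, had no UMI in Sst-rich barcodes and was at 38.5 and 40.2 CPM in endothelial ones.

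Of 10 listed receptors, only Sstr3 reached 20 CPM in these groups in both libraries, and it did not pass 1.5-fold in both. Sstr2 was at 10.6 CPM in Gcg-rich against 1.75 CPM in Sst-rich barcodes of the library labelled BcBKO and at 11.9 against 2.01 CPM in flox/flox. Sstr3 was at 34.8 against 56.8 CPM and at 36.1 against 54.3 CPM. Sstr1 had no UMI in Gcg-rich barcodes of the library labelled BcBKO and 1 in those of flox/flox, and stood at 9.90 and 7.37 CPM in Sst-rich barcodes. The glucagon receptor Gcgr was at 1.00 and 0.688 CPM in Gcg-rich barcodes and at 7.28 and 5.03 CPM in Sst-rich ones. In insulin-rich barcodes it was at 8.80 and 9.24 CPM, where Ins1 and Ins2 made up 61.3% and 63.9% of the UMIs. Per 1000000 UMIs outside the 8 hormone genes and the mitochondrial genes, Gcgr stood at 11.6 in Sst-rich and 29.8 in insulin-rich barcodes of the library labelled BcBKO, and at 7.76 and 32.9 in flox/flox. Sstr4, Sstr5 and Glp2r had no UMI in Gcg-rich or Sst-rich barcodes.

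Of 12 transcription factors at that level, 2 were higher in Gcg-rich barcodes (Irx1 and Irx2) and 5 lower (Hhex, Pdx1, Isl1, Pax6 and Rfx6), beside 3.41% higher and 20.6% lower of all genes compared. Pdx1, the factor whose promoter drives the recombinase, was at 8.51 CPM in Gcg-rich against 95.2 CPM in Sst-rich barcodes of the library labelled BcBKO and at 4.99 against 79.1 CPM in flox/flox. Its level in insulin-rich barcodes was 62.9 and 47.1 CPM. The order of Sst-rich and insulin-rich barcodes depended on the scale. Per 1000000 UMIs outside the hormone and mitochondrial genes, Pdx1 stood at 152 in Sst-rich and 213 in insulin-rich barcodes of the library labelled BcBKO, and at 122 and 168 in flox/flox, so that the insulin-rich barcodes were the higher ones.

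Of 10 genes of prohormone processing and the secretory granule, none was higher in Gcg-rich barcodes and 3 were lower, with a median log2 ratio of 0.04. With 20.6% of all genes lower and a median of -0.39 over them, this count is near the background and is not read as a result about these genes. Pcsk1, the convertase that acts with Pcsk2 on proinsulin, was at 10.0 CPM in Gcg-rich against 27.1 CPM in Sst-rich barcodes of the library labelled BcBKO and at 4.82 against 39.9 CPM in flox/flox. Chgb, a granule protein, was at 479 against 2544 CPM and at 475 against 2630.5 CPM, and the granule protein gene Scg2 at 1008 against 3174 CPM and at 1034 against 3455 CPM. Pcsk2 was at 3421 against 2644 CPM and at 3206 against 2837 CPM, short of 1.5-fold. Among the other islet hormones only Iapp, which encodes amylin, passed 1.5-fold in both libraries, at 3639 CPM in Gcg-rich against 24692 CPM in Sst-rich barcodes of the library labelled BcBKO and at 2291 against 23158 CPM in flox/flox.

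**Figure D4:**
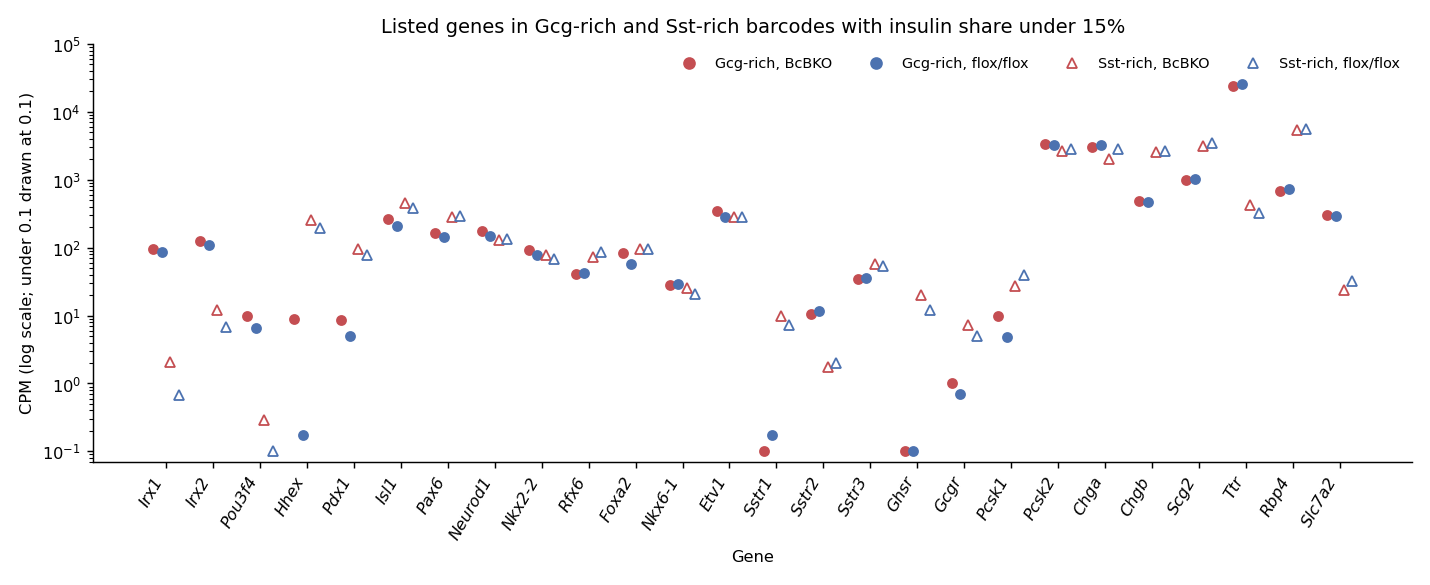
Level (CPM, log scale, values under 0.1 drawn at 0.1) of listed genes in Gcg-rich (filled circles) and Sst-rich (open triangles) barcodes with under 15% insulin, in the library labelled BcBKO (red) and flox/flox (blue). Irx1, Irx2 and Ttr are higher in Gcg-rich barcodes and Hhex, Pdx1, Ghsr and Rbp4 in Sst-rich barcodes of both libraries.

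Within Gcg-rich barcodes, none of 9 processing genes and none of 10 transcription factors at 20 CPM passed 1.5-fold between the libraries, which 2.36% of 4825 genes did. The hormone gene Iapp did, at 3639 CPM in the library labelled BcBKO and 2291 CPM in flox/flox (log2 ratio 0.67). Its median was 26.5 UMIs per barcode in the library labelled BcBKO and 26 in flox/flox, beside 20 and 19 in endothelial barcodes. As mean UMIs per barcode the Iapp ratio was 0.41, which does not pass 1.5-fold. Among listed genes under 20 CPM in Gcg-rich barcodes, Hhex had 70 UMIs (8.76 CPM) in the library labelled BcBKO and 1 (0.172 CPM) in flox/flox. Pcsk1 had 80 and 28 UMIs (10.0 and 4.82 CPM), and Pdx1 68 and 29 (8.51 and 4.99 CPM). Hhex was also at 40.5 and 36.6 CPM in endothelial barcodes not rich in Gcg or Sst. Within Sst-rich barcodes none of 10 processing genes and none of 10 transcription factors passed, beside 2.93% of 6035 genes, and Ghsr did, at 20.4 CPM in the library labelled BcBKO and 12.1 CPM in flox/flox (log2 ratio 0.71). Sst itself stood higher in Gcg-rich barcodes of the library labelled BcBKO, at 441 CPM against 127 CPM in flox/flox (log2 ratio 1.79), although the median was 2 UMIs there and 1 in flox/flox. The highest of these barcodes held 792 Sst UMIs in the library labelled BcBKO and 136 in flox/flox.

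Markers of other cell types moved with this. In Gcg-rich barcodes the 8 endothelial markers summed to 313 CPM in the library labelled BcBKO and 142 CPM in flox/flox, the 8 mural markers to 75.1 and 9.29 CPM, and the 8 macrophage markers to 158 and 97.5 CPM. The 5 acinar markers went the other way, at 44.8 and 241 CPM. In Sst-rich barcodes the endothelial markers summed to 294 CPM in the library labelled BcBKO and 185 CPM in flox/flox and the macrophage markers to 253 and 168 CPM, while the mural markers, at 35.2 and 50.6 CPM, and the acinar markers, at 50.7 and 337 CPM, went the other way. The part of these in the hormone levels was not tested. Between Gcg-rich and Sst-rich barcodes, 1 of 6 endothelial markers (Egfl7) and the macrophage marker C1qa were lower in Gcg-rich barcodes in both libraries, the duct marker Spp1 was higher, and of 5 beta cell markers 1 (Iapp) was lower. Of all 5547 genes compared between these groups, 20.6% were lower and 3.41% higher. The endothelial and beta cell counts are near that share and are not read as a result about these lists. None of the 2 pancreatic polypeptide cell markers, 1 mural and 1 acinar marker at 20 CPM passed 1.5-fold in the same direction in both libraries. Ppy was lower in Gcg-rich barcodes, with log2 ratios of -1.07 in the library labelled BcBKO and -0.49 in flox/flox. The mural marker Rgs5 went in opposite directions, at 0.84 in the library labelled BcBKO and -2.16 in flox/flox. The B cell, T and NK cell, Schwann and epsilon cell lists had no other gene at that level.

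Some barcodes were rich in both hormones. They numbered 112 (1.32%, 1.09 to 1.58) in the library labelled BcBKO and 47 (0.621%, 0.457 to 0.825) in flox/flox. They made up 10.4% of the Gcg-rich and 18.4% of the Sst-rich barcodes in the library labelled BcBKO, and 8.38% and 12.1% in flox/flox. Their median depth was 23386 UMIs in the library labelled BcBKO and 28369 in flox/flox, above the 14097 and 15834 of all Gcg-rich barcodes. Scrublet marked 4 and 2 of them. Ppy, which encodes pancreatic polypeptide, also reached 2% of UMIs in 280 of the Gcg-rich barcodes of the library labelled BcBKO (26.0%) and in 159 of those in flox/flox (28.3%). Among Sst-rich barcodes it did so in 264 (43.3%) and 202 (51.9%). These shares depended on the insulin class. Under 15% insulin they were 34.3% and 32.2% of Gcg-rich and 56.9% and 62.1% of Sst-rich barcodes. At 25% or more they were 6.27% and 10.8%, and 10.0% and 7.35%. The share of all kept barcodes at 2% Ppy was not counted, so these shares are not read as an excess.

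Across barcodes with under 15% insulin, the genes whose levels followed Gcg most closely were Ttr, Pappa2, Tmsb15b2, Gpx3 and Slc7a2. Pearson's r of log-scaled counts was 0.87 for Ttr over 3723 barcodes of the library labelled BcBKO and 0.85 over 3530 of flox/flox. For Sst they were Fam159b, Ly6h, Dpp6, Rbp4 and Arg1, with r of 0.84 and 0.85 for Fam159b. Gcg and Sst themselves had r of -0.05 and -0.04. These coefficients describe barcodes that share a library and include those rich in the hormone, among 13097 genes compared. Ghrl had too few UMIs for such a ranking.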

How the data were processed

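For each of 2 libraries of mouse islet cells the authors deposited a table of raw UMI counts by gene and barcode. Per the submitters' processing notes, Cell Ranger 3.1.0 and Seurat 4.0.0 were used with build mm10, and version 6.1.2 appears in the matrix header. The gene annotation is not given in the sources used here.

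UMIs were summed per library and barcode group and divided by the group's total to give CPM. Log2 ratios are of CPM plus 1, the library labelled BcBKO over flox/flox, and understate low genes. Genes at 20 CPM or more in either library were compared, and those whose ratio exceeded 1.5-fold were counted. Between Gcg-rich and Sst-rich barcodes, a gene had to reach 20 CPM in either group within each library. It was counted when it passed 1.5-fold in the same direction in both libraries. CPM are counts per 1000000. Intervals are exact (Poisson for CPM, Clopper-Pearson for shares) at 95%, and limits for a count of 0 are 3 counts. With 1 library per group no test was run. Doublets were kept, and Scrublet calls (8% assumed rate) were left out as an alternative. They were 2.09% of kept barcodes in the library labelled BcBKO and 2.25% in flox/flox. Named genes were the members, the marker, receptor, transcription factor, processing and hormone lists, and the 5 genes most like each member. The members and lists were chosen with earlier results of these data known, and some listed genes are not reported here. The fold counts were tested on simulated data. Software was scanpy 1.11.5, scipy 1.17.1, numpy 2.4.6, pandas 2.3.3 and matplotlib 3.10.9 under Python 3.11.15.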

Additional observations from a re-analysis of the deposited data

Results flagged for a closer look

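In barcodes with an insulin share of 15 to 25%, the Gcg level was lower in the library labelled BcBKO than in flox/flox (log2 ratio -0.26), while it was higher in the library labelled BcBKO in 5 other barcode groups. Without the 7 barcodes of the library labelled BcBKO and the 8 of flox/flox above 1000 Gcg UMIs, the ratio was 0.51. In mural barcodes the Sst level was lower in the library labelled BcBKO (log2 ratio -0.16), while it was higher there in 5 other groups. Without the 15 hormone-rich mural barcodes of the library labelled BcBKO and the 4 of flox/flox, the Sst ratio was 0.89. The endothelial, mural and macrophage groups overlap and all lie within the class under 15% insulin, so the groups counted here are not independent. Neither difference between groups was tested, since each group comes from 1 library of each genotype.

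Barcodes that failed the filter, which the comparisons do not use, held more Sst in the library labelled BcBKO than in flox/flox (log2 ratio 0.73), with 11944 UMIs in 2271 barcodes and 5957 UMIs in 1870.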

How the results depend on the processing

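Of 90 levels and shares recomputed under other settings, 51 stayed within their counting interval, 39 moved and none changed sign. All recomputed Ghrl values are among the 51, but they could hardly move. The Ghrl shares were 0, and the intervals of its log2 ratios were as wide as -5.90 to 6.69. The 39 that moved were all of Gcg or Sst. Of 10 recomputed counts of genes past 1.5-fold, 7 stayed within 1.5 times and 3 did not. Apart from these, the Gcg ratio at 15 to 25% insulin was -0.26, and 0.51 without barcodes above 1000 Gcg UMIs. The Sst ratio in mural barcodes was -0.16, and 0.89 without hormone-rich barcodes. For the share of barcodes rich in Gcg, the difference was 3.87 points at a threshold of 5% and 7.78 points in barcodes with under 15% insulin only. For Sst it was 0.787 points at 5%. The Gcg level of Gcg-rich barcodes had log2 ratios of -0.45 as mean UMIs per barcode, -0.34 with totals without hormone and mitochondrial genes, -0.49 at a threshold of 1%, -0.15 at 5% and -0.42 without Scrublet calls. For Sst the same settings gave -0.22, -0.19, -0.28, -0.052 and -0.28, and a stricter cell filter gave -0.25. In endothelial barcodes Gcg had 1.34 as mean UMIs, 1.54 with totals without hormone and mitochondrial genes, 1.26 without Scrublet calls, 0.50 without the top 10% of barcodes, 0.45 without hormone-rich barcodes, 1.45 with the marker minimum raised and 0.45 without barcodes over 100 UMIs. Sst there had 0.88 as mean UMIs, 0.74 without Scrublet calls, 0.95 without the top 10%, 0.80 without hormone-rich barcodes, 1.37 with the marker minimum raised and 0.87 without barcodes over 100 UMIs. In insulin-rich barcodes Gcg had 0.71 as mean UMIs, 0.79 with totals without hormone and mitochondrial genes, 0.96 without Scrublet calls, 0.75 without the top 10%, 1.43 without hormone-rich barcodes and 0.70 without barcodes over 100 UMIs, and Sst had 0.80, 0.88, 1.03, 1.01, 1.08 and 1.06. The number of genes past 1.5-fold was 133 in endothelial barcodes, 92 with a pseudocount of 10 CPM and 922 with no minimum level. In insulin-rich barcodes it was 36, 24 with a pseudocount of 10 CPM, 165 with no minimum level and 83 with totals without hormone and mitochondrial genes. The alternatives without shared barcodes, without barcodes over 100 or 1000 UMIs, with barcodes of 1 marker rule alone, and the levels per 1000000 UMIs outside hormone and mitochondrial genes in the text were chosen after seeing the data. The cause of these moves was not tested. No paired analysis was possible because each genotype has 1 library and the labels give no replicate numbers. For Ghrl, depth limits every comparison.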
